A study of Bos taurus with 18 samples.

Results

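The glycine cleavage system and the folate enzymes around it were followed through 6 groups of bovine blastocysts. The set held 10 genes, GLDC, AMT, GCSH, DLD, SHMT1, SHMT2, MTHFD1, MTHFD2, MAT2A and AGXT2L1, of the 15229 genes named on the array. Its members were the probes carrying 1 of these symbols in the array's annotation, which were 20 of 43794 probes. All 20 lay above the negative control spots on at least 3 of the 18 arrays and were kept.

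Glycine cleavage is a mitochondrial reaction in which glycine is split into carbon dioxide, ammonia and a carbon unit that is handed to folate. The P-protein GLDC removes the carboxyl group, the lipoate-bearing H-protein GCSH carries the remainder, the T-protein AMT passes the carbon to tetrahydrofolate, and the dehydrogenase DLD restores the lipoate arm. Folate-bound carbon serves purine, thymidylate and methionine synthesis, and in mouse embryonic stem cells glycine cleavage is known as a supply of it. AGXT2L1, listed today as ETNPPL, is a phosphoethanolamine phospho-lyase of phospholipid breakdown and not a folate enzyme.

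Embryos were made by in vitro fertilisation with semen from a single bull and were sorted by the day on which the blastocyst cavity formed. The groups day6, day7 and day8 were collected when the cavity formed on that day of culture. The groups day6+1 and day7+1 were kept for 1 more day, and day6+2 for 2 more days. Each group had 3 arrays described as biological replicates. Neither the embryo number per array nor a separate culture for each replicate is stated, so SDs and p-values measure the spread between these arrays, which may be technical. Per the series' design, embryos were cultured in groups of 25 in 50 µl drops at 39 °C under 5% O2, 5% CO2 and 90% N2, and per the labels of 9 of the arrays, on VERO monkey kidney cells.

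RNA was amplified in 2 rounds, labelled with Cy3 and read on 1-colour arrays, so a level below is a normalized log2 intensity of 1 probe and a difference of 1 is a doubling. Levels of different probes cannot be ranked against each other. Median foreground ran from 157 to 302 and median background from 14 to 21, and 72.0% to 81.1% of probes stood above the negative controls. Arrays of a group correlated at 0.963 to 0.981. The first principal component, with 19.1% of the variance, set apart 5 arrays, namely all 3 of day8 and the first of day6+1 and of day7, which scored 34.6 to 46.0 against -30.2 to 7.0 in the other 13. All 12 trophectoderm markers were above the negative controls on all 18 arrays, as were 5 of 7 epiblast and 6 of 7 hypoblast markers. Marker sums add normalized intensities taken off the log scale. For tested markers of cells outside the embryo, they ran from 2074 to 3087 for cumulus and granulosa cells and from 1183 to 1610 for oocytes. For fibroblasts and kidney epithelium they ran from 2776 to 5085. In these lists, 4, 3 and 4 of 8 markers were above the negative controls on all arrays.

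The set was selected on measured values of this series: GLDC and AGXT2L1 were brought in because they were among the 5 genes with the largest falls in day6+1 against day6 and in day6+2 against day6. Values of all members in these comparisons, and in the others that use day6, day6+1 or day6+2 arrays, are therefore given as a description, with their standard errors (SE) from the fit over all features and without a test. The comparisons among day7, day7+1 and day8 take no group mean from those arrays and were tested. Their SEs, intervals and p-values use a spread estimated over all 18 arrays, those of day6, day6+1 and day6+2 included. In a bulk measurement, fewer cells of a type and less RNA per cell cannot be told apart.

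GLDC, AMT and GCSH, which bind or carry the glycine carbon, had their highest group mean in day6 and their lowest in day6+2. AGXT2L1, and MAT2A at its brightest probe, had the same ends. SHMT2 at its brightest probe was also highest in day6, but lowest in day8. Not every other probe of MAT2A and SHMT2 followed. MTHFD2, the mitochondrial methylenetetrahydrofolate dehydrogenase, ran the other way from GLDC, lowest in day6 and highest in day6+2. DLD, MTHFD1, SHMT1 and the brightest probe of MAT2A showed no gap between neighbouring groups larger than their within-group spread.

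GLDC (probe EMBV3_31391) stood at 12.27, 12.27 and 11.85 on the day6 arrays. It was 10.69, 10.02 and 9.53 in day6+1 and 9.79, 9.34 and 9.95 in day6+2. Both later groups lay wholly below day6, by more than 1 unit at the nearest pair. In day7 it was 10.73, 10.52 and 11.51, in day7+1 8.60, 11.33 and 10.82, and in day8 10.10, 10.92 and 11.18. No other group reached the day6 level, and day7+1 replicate 1 was the lowest of all 18 arrays.

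From highest to lowest mean, GLDC ran day6, day7, day8, day7+1, day6+1, day6+2. Of the 5 steps in that order only the step from day6 to day7, of 1.21, exceeded the pooled within-group SD of 0.73. The day6 level was 4.15-fold that of day6+1, a difference of -2.05 ± 0.47 (SE, n = 3 against 3), and 5.43-fold that of day6+2, a difference of -2.44 ± 0.47. On arrays hybridised on the same slide, day6+2 minus day6 was -2.71 on slide 1 and -1.90 on slide 4, and day6+1 minus day6 was -2.32 on slide 4.

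AMT (probe EMBV3_31389) was 11.32, 11.73 and 10.76 in day6. Its values were tight in day6+1, at 10.46, 10.27 and 10.37, and in day6+2, at 10.12, 10.19 and 10.25. In day7 they were 10.74, 10.68 and 10.52, so every day7 array lay below every day6 array, the nearest by less than 0.1. The day7+1 arrays read 9.72, 10.64 and 10.44 and the day8 arrays 10.18, 10.08 and 10.77. AMT differed from day6 by -0.90 ± 0.25 in day6+1 and by -1.09 ± 0.25 in day6+2. Within slide 4 these differences were smaller, -0.39 and -0.51, against -1.37 for day6+2 within slide 1.

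GCSH (probe EMBV3_23352, the brightest of 3) was 14.22, 14.71 and 14.04 in day6. It was 13.14, 12.61 and 13.03 in day6+1 and 11.85, 12.24 and 12.59 in day6+2. The 3 groups formed a descending series without overlap. In day7 GCSH read 13.12, 13.19 and 13.49, in day7+1 11.93, 13.17 and 13.16, and in day8 12.01, 13.16 and 13.32. As with GLDC, the low arrays of these groups were day7+1 replicate 1 and day8 replicate 1.

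GCSH differed from day6 by -1.40 ± 0.33 in day6+1 and by -2.10 ± 0.33 in day6+2, when the day6 level was 4.27-fold higher. Its other 2 probes gave -1.29 and -1.38 in day6+1 and -1.89 and -2.14 in day6+2. The 3 probes correlated at 0.94 to 0.95 over the 18 arrays. Within slides, day6+2 minus day6 was -2.42 on slide 1 and -1.45 on slide 4.

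DLD (probe EMBV3_40140), the component that glycine cleavage shares with the pyruvate, 2-oxoglutarate and branched-chain keto acid dehydrogenases, did not share this pattern. Its group means ran from 10.74 in day7 to 11.09 in day6+1, and its arrays from 10.04 to 11.50. None of the 5 steps between neighbouring groups exceeded the pooled SD of 0.50. Its difference from day6 was 0.35 ± 0.34 in day6+1 and 0.27 ± 0.34 in day6+2, each near its standard error.

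**Figure D1:**
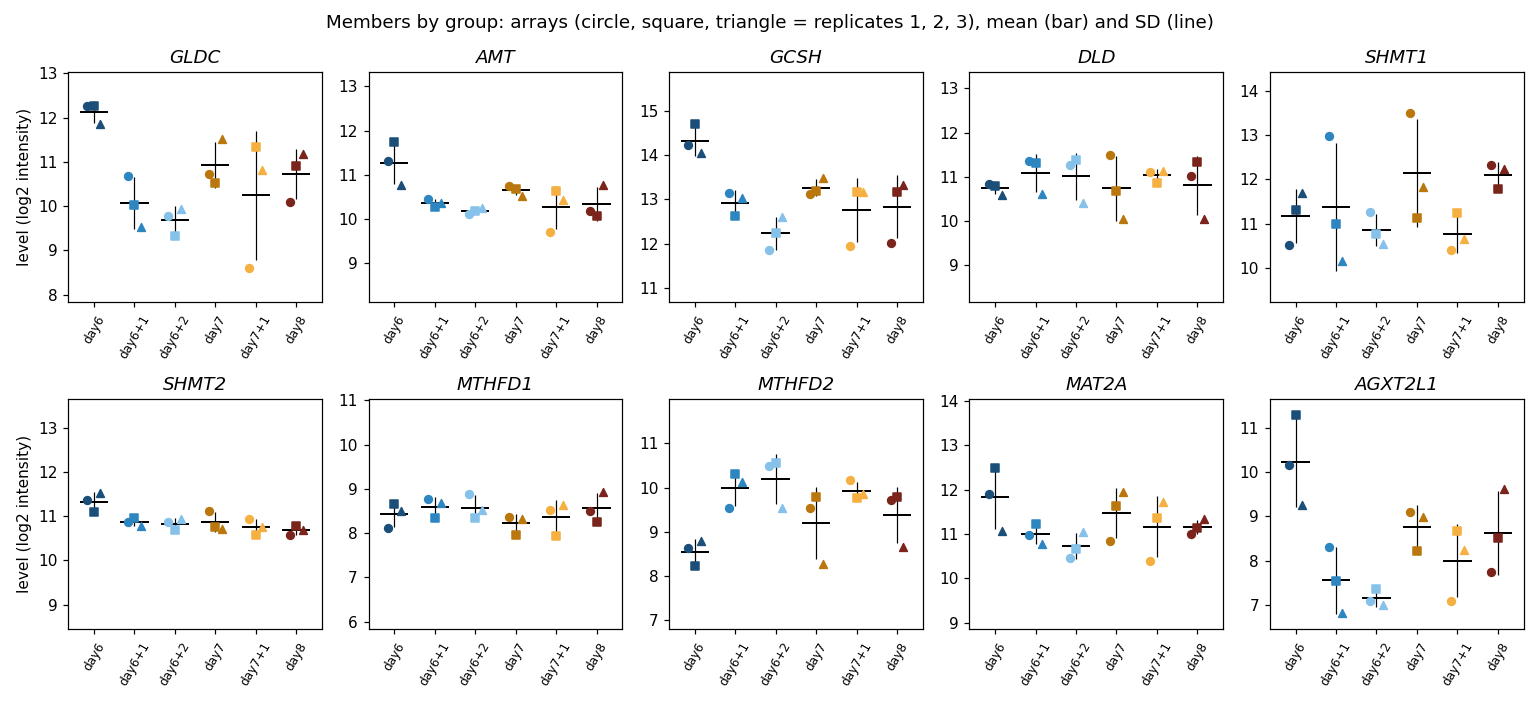
Normalized level (log2 intensity) of the 10 members, each at its brightest probe, in the 6 groups of 3 arrays. Points are arrays, bars are group means and vertical lines are SD, and every panel spans the same number of log2 units. GLDC, AMT, GCSH, SHMT2, MAT2A and AGXT2L1 have their highest mean in day6, and MTHFD2 has its lowest there. SHMT1 splits between arrays of a group in day6+1 and day7.

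SHMT1 and SHMT2, the cytosolic and mitochondrial serine hydroxymethyltransferases, convert serine to glycine while loading folate with the carbon. SHMT1 (probe EMBV3_06474) was 10.51, 11.30 and 11.70 in day6, 12.97, 10.99 and 10.16 in day6+1, and 11.26, 10.78 and 10.54 in day6+2. It was 13.50, 11.12 and 11.82 in day7, 10.41, 11.25 and 10.66 in day7+1, and 12.32, 11.78 and 12.23 in day8. SHMT1 followed the first principal component, at r = 0.87 over the 18 arrays, a description since both come from the same arrays. The 5 arrays high on that component held 11.78 to 13.50 and the other 13 held 10.16 to 11.82.

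SHMT2 (probe EMBV3_22228, the brightest of 4) was 11.36, 11.09 and 11.52 in day6 and lay between 10.56 and 11.12 in the 15 other arrays. The day6 arrays were above those of day6+1 (10.88, 10.97 and 10.77) and day6+2 (10.87, 10.69 and 10.94). The differences were -0.46 ± 0.18 and -0.49 ± 0.18. The 4 probes did not share a direction: in day6+2 against day6 the others gave -0.38, -0.13 and 0.01. EMBV3_09984 and EMBV3_42002, which gave -0.13 and 0.01, were above the negative controls on 17 and 14 of 18 arrays. Their highest arrays read 7.94 and 7.49, so background limits what they can show. The gene's direction rests on the probe.

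MTHFD1 (probe EMBV3_11936), the cytosolic enzyme that joins 3 activities of folate interconversion, kept a narrow range. Its group means lay between 8.22 in day7 and 8.60 in day6+1, and none of the 5 steps between neighbours exceeded the pooled SD of 0.29. It differed from day6 by 0.18 ± 0.23 in day6+1 and by 0.16 ± 0.23 in day6+2.

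MTHFD2 (probe EMBV3_38724, the brighter of 2) read 8.63, 8.24 and 8.78 in day6. It was 9.54, 10.30 and 10.13 in day6+1 and 10.48, 10.56 and 9.54 in day6+2. All 6 of these arrays lay above all 3 of day6. In day7 it was 9.55, 9.79 and 8.27, in day7+1 10.17, 9.76 and 9.85, and in day8 9.72, 9.78 and 8.65. The third day7 and day8 arrays, both on slide 5, lay within the range of day6.

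MTHFD2 differed from day6 by 1.44 ± 0.36 in day6+1, a 2.71-fold higher level, and by 1.64 ± 0.36 in day6+2, a 3.12-fold higher level. Within slide 1 day6+2 minus day6 was 2.08, and within slide 4 it was 0.76. The other MTHFD2 probe gave 0.15 ± 0.28 and 0.47 ± 0.28 for the same comparisons, and its correlation with the brighter probe was 0.53. That other probe was dim, at 7.025 to 8.308 over the 18 arrays. The value of MTHFD2 therefore rests on 1 of its 2 probes.

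MAT2A makes S-adenosylmethionine, the methyl donor downstream of the folate cycle. Its brightest probe (EMBV3_20415, of 5) read 11.91, 12.49 and 11.07 in day6, 10.97, 11.22 and 10.78 in day6+1 and 10.47, 10.67 and 11.04 in day6+2. The third day6 array fell within the range of day6+1 and just above day6+2. The differences from day6 were -0.83 ± 0.34 and -1.10 ± 0.34. Only 1 of the other 4 probes had the same sign in both, with -0.08 ± 0.28 and -0.38 ± 0.28, while the other 3 ranged from 0.02 to 0.35. These 3 were dim, with a highest array of 7.991. Of them, EMBV3_33366 and EMBV3_33731 were above the negative controls on 15 and 17 of 18 arrays. Within slide 4 the brightest probe gave -0.03 for day6+2 minus day6, against -1.63 within slide 1.

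**Figure D2:**
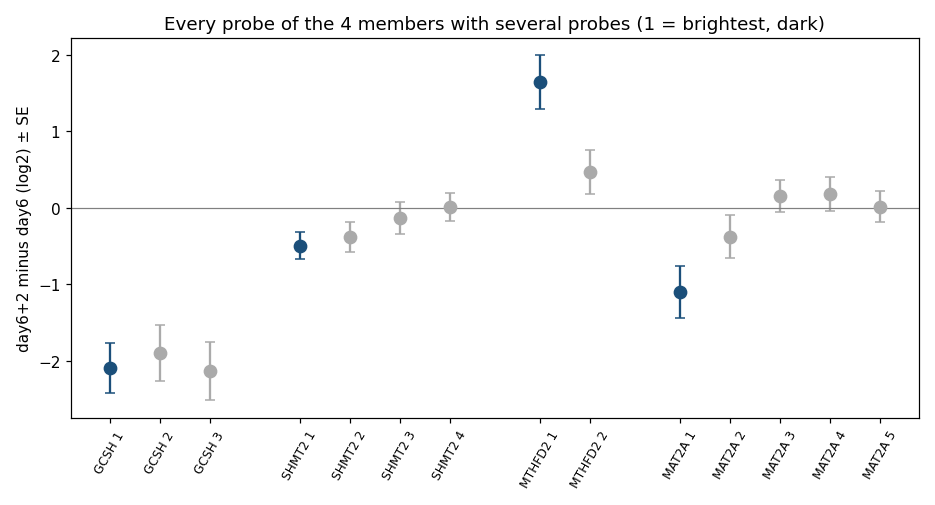
Difference of day6+2 from day6 (log2, vertical axis) with its SE for every probe of the members with several probes, ordered within a gene from the brightest, which is dark. The 3 GCSH probes lie together between -2.14 and -1.89, while MAT2A and SHMT2 probes lie on both sides of 0. The MAT2A and SHMT2 probes above 0 are dim, with highest arrays of 7.49 to 7.99.

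AGXT2L1 (probe EMBV3_13650) had the widest range of group means, 3.09. It stood at 10.15, 11.28 and 9.26 in day6. It was 8.31, 7.54 and 6.81 in day6+1 and 7.10, 7.35 and 6.99 in day6+2, and the third array of each of these groups was not above the negative controls. In day7 it was 9.10, 8.20 and 8.99, in day7+1 7.09, 8.67 and 8.24, and in day8 7.73, 8.51 and 9.63. The highest day8 array reached the range of day6, and the day6+1 and day6+2 arrays stayed below it.

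AGXT2L1 ran in the same order of groups as GLDC. The step of 1.47 from day6 to day7 was the only one of 5 above the pooled SD of 0.76. It differed from day6 by -2.68 ± 0.49 in day6+1 and by -3.09 ± 0.49 in day6+2. Only 2 of 3 arrays in each of these groups were above the negative controls, so background limits both sizes and no fold is given. Within slides, day6+2 minus day6 was -3.49 on slide 1 and -2.28 on slide 4, and day6+1 minus day6 was -2.46 on slide 4.

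**Figure D3:**
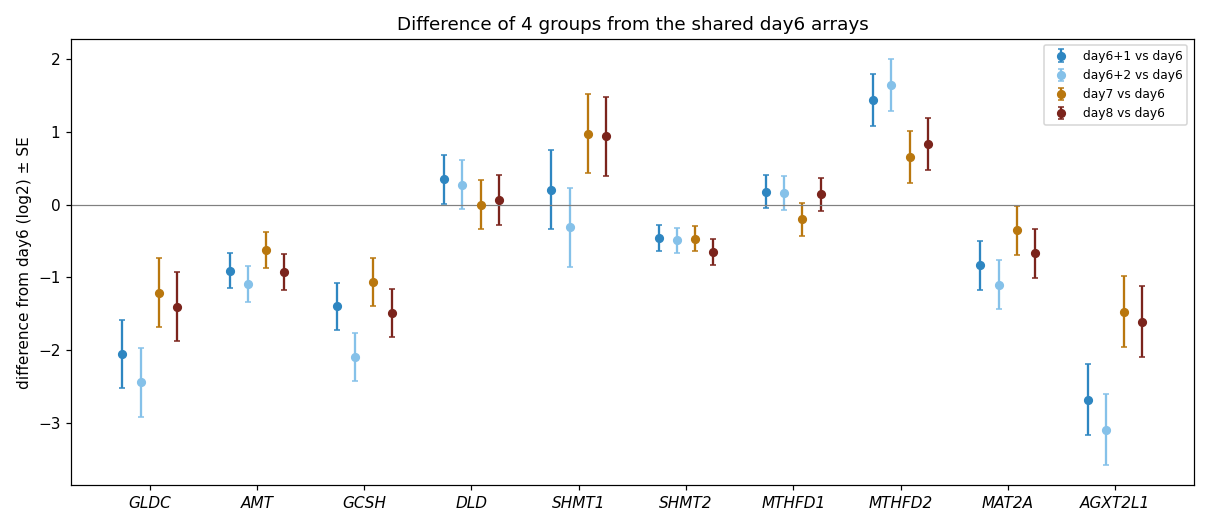
Difference from day6 (log2, vertical axis) of the day6+1, day6+2, day7 and day8 groups, with SE, for the 10 members at their brightest probe. The 4 comparisons share the day6 arrays. GLDC, AMT, GCSH, SHMT2, MAT2A and AGXT2L1 are below 0 and MTHFD2 above 0 in each of them. Values run from -3.09 for AGXT2L1 to 1.64 for MTHFD2, both in day6+2. Not every other probe of SHMT2 and MAT2A shares that sign.

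Of the 10 members, day6+1 lay wholly above day6 in 1 and wholly below in 5, where 7.35% of all features lay wholly above and 7.86% wholly below. Day6+2 lay wholly above day6 in 1 and wholly below in 6, where the features gave 9.02% and 9.08%. Since these contrasts brought members into the set, nothing is read from the counts. The median difference of the members was -0.64 in day6+1 and -0.79 in day6+2, beside -0.02 over all features in both.

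Blastocysts collected at cavity formation on a later day were set against the same day6 arrays. GLDC differed by -1.21 ± 0.47 in day7 and -1.40 ± 0.47 in day8, and GCSH by -1.06 ± 0.33 and -1.49 ± 0.33. AGXT2L1 differed by -1.47 ± 0.49 and -1.61 ± 0.49, and AMT by -0.62 ± 0.25 and -0.93 ± 0.25. Arrays of GLDC and GCSH did not overlap day6 in either group, while those of AGXT2L1 and AMT overlapped it in day8. MTHFD2 was 0.65 ± 0.36 and 0.83 ± 0.36, with overlapping arrays in both. SHMT1 was 0.97 ± 0.54 and 0.94 ± 0.54, carried in day7 by replicate 1. These values rest on the same 3 day6 arrays as those above and are no separate evidence. No slide held day6 arrays together with day7 or day8 arrays, so no within-slide value could be had. With slide as a fixed block, calls over all features went from 99 to 4 in day7 and from 507 to 1 in day8. The part of slide in these differences was not tested.

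In day7, 0 of 10 members lay wholly above and 4 wholly below day6, where all features gave 5.72% and 7.13%. In day8 the members gave 1 and 3, where all features gave 8.06% and 9.46%.

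The later groups were also set against each other. Day6+2 minus day6+1 was -0.70 ± 0.33 for GCSH and -0.18 ± 0.25 for AMT, whose arrays did not overlap. It was -0.39 ± 0.47 for GLDC and -0.41 ± 0.49 for AGXT2L1, whose arrays did. Within slide 4 the difference was -0.43 for GCSH and -0.12 for AMT, and 0.42 for GLDC and 0.18 for AGXT2L1, which turned their direction. Arrays of the same number deviated together in these 2 groups. Within the 3 pairs GLDC differed by -0.90, -0.68 and 0.42, AGXT2L1 by -1.22, -0.19 and 0.18, and GCSH by -1.29, -0.37 and -0.43. Embryos collected on the same day but with an older cavity can also be set side by side. Day7 minus day6+1 was 0.84 ± 0.47 for GLDC, 1.21 ± 0.49 for AGXT2L1 and -0.79 ± 0.36 for MTHFD2, with overlapping arrays in each. For AMT it was 0.28 ± 0.25, without overlap. In day7 and day6+1 too, arrays of the same number deviated together. Replicates 1 and 2 of both groups shared slide 3, and no pairing is stated. Within the 3 pairs day7 was higher by 0.05, 0.51 and 1.98 for GLDC and by 0.78, 0.67 and 2.18 for AGXT2L1. MTHFD2 differed by 0.01, -0.52 and -1.86. Within slide 3 the differences were 0.28, 0.72 and -0.25. Day8 minus day6+2 was 1.04 ± 0.47 for GLDC, 1.48 ± 0.49 for AGXT2L1 and 1.25 ± 0.54 for SHMT1. In each of them every day8 array lay above every day6+2 array. Only 2 of 3 AGXT2L1 arrays of day6+2 were above the negative controls, so background limits that size. The share of all features without overlap was not counted for the comparisons of this paragraph. No slide held arrays of both day8 and day6+2. For GCSH the difference of day8 from day6+2 was 0.60 ± 0.33, and for MTHFD2 -0.81 ± 0.36, with overlap.

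GLDC, AMT, GCSH and AGXT2L1 moved together from array to array. Over the 18 arrays GLDC correlated with GCSH at 0.90, with AMT at 0.84 and with AGXT2L1 at 0.91, and with MTHFD2 at -0.84. After each group's mean was removed these values were 0.78, 0.64, 0.73 and -0.58. DLD correlated with GLDC at -0.34 and with MTHFD2 at 0.64. The brightest MAT2A probe correlated with GLDC, AMT and GCSH at 0.79 to 0.80. Points of these correlations share the array, its amplification and its slide, and they are given as a description.

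**Figure D4:**
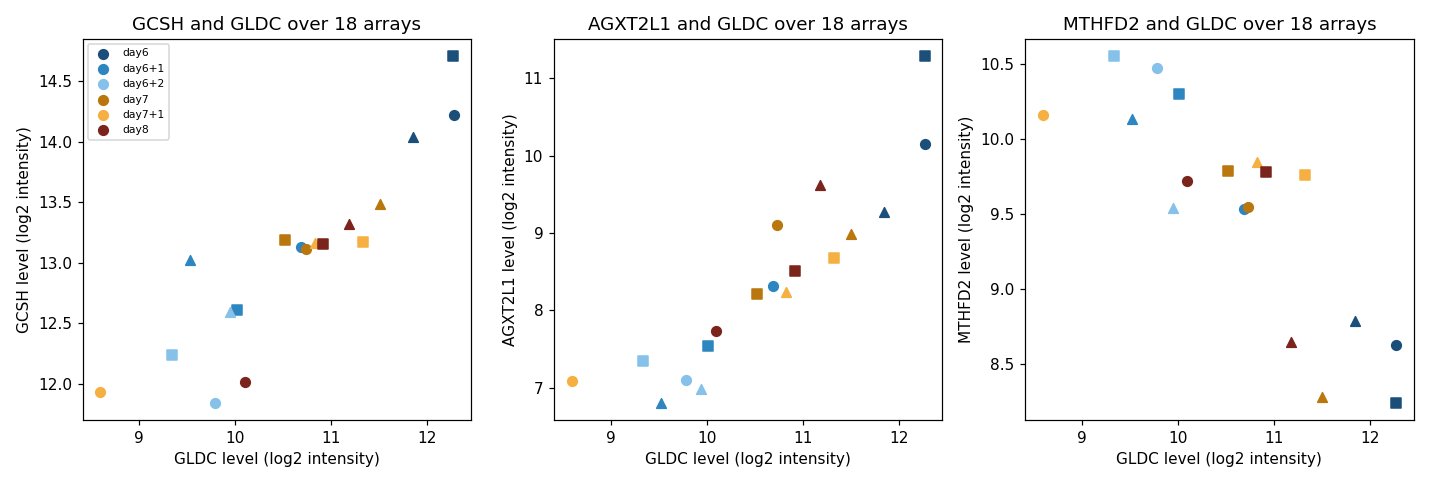
Levels (log2 intensity) of GCSH, AGXT2L1 and MTHFD2 against that of GLDC on the 18 arrays. Colours are groups, and circles, squares and triangles are replicates 1, 2 and 3. GCSH and AGXT2L1 are higher where GLDC is higher (r = 0.90 and 0.91) and MTHFD2 is lower there (r = -0.84), and the day7+1 array with the lowest GLDC lies near the day6+2 arrays.

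Among the named genes outside the set, those most correlated with GLDC over the 18 arrays were LOC787129 (0.90), TRIM63 (0.90), DST (0.90), HIST1H2BN (0.90) and AGPAT5 (0.89). Those most correlated with AGXT2L1 were PRKCI (0.95), DST (0.92), TRIM63 (0.92), IL6 (0.92) and AGPAT5 (0.92). DST, TRIM63 and AGPAT5 were in both lists. GLDC and AGXT2L1 themselves correlated at 0.91 and were chosen on the same contrasts, so the shared genes are a description and no separate evidence.

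An extra day of culture after cavity formation on day 7 could be tested on group means free of the arrays that shaped the set. The spread still came from all 18 arrays. In day7+1 against day7, 0 of 10 members passed an adjusted p of 0.05 (limma with Benjamini-Hochberg adjustment over all features), and 1 did before adjustment. Of all features 0.0175% passed, 6 of 34283, and 2452 did before adjustment. GLDC differed by -0.67 (95% interval -1.65 to 0.31), AGXT2L1 by -0.76 (-1.78 to 0.25) and GCSH by -0.51 (-1.19 to 0.18). AMT differed by -0.39 (-0.90 to 0.12) and MTHFD2 by 0.72 (-0.02 to 1.46). Beside these stand the day6+1 minus day6 values of -2.05 for GLDC, -2.68 for AGXT2L1 and -1.40 for GCSH, and whether the extra day differed between the day 6 and day 7 embryos was not tested for the members.

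The low values of day7+1 came largely from 1 array. Without day7+1 replicate 1, GLDC differed by 0.15 instead of -0.67, AMT by -0.11 instead of -0.39, GCSH by -0.10 instead of -0.51 and AGXT2L1 by -0.31 instead of -0.76, and the brightest MAT2A probe by 0.07 instead of -0.31. Without day7 replicate 3 GLDC differed by -0.38 and MTHFD2 by 0.26 instead of 0.72. SHMT1 had the smallest adjusted p, 0.601, at -1.37 (-2.50 to -0.25), and without day7 replicate 1 it was -0.70. No slide held both groups, so a within-slide value could not be had.

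In day8 against day7, 0 of 10 members passed in limma, and 0 had an unadjusted p under 0.05. Of all features 0.0175% passed, and 3127 had an unadjusted p under 0.05. Arrays of both groups overlapped for every member. The largest difference was that of GCSH, -0.43 (-1.12 to 0.25), and the smallest adjusted p was 0.723, of MTHFD1 at 0.34 (-0.14 to 0.82). GLDC differed by -0.19 (-1.17 to 0.79) and AGXT2L1 by -0.14 (-1.16 to 0.87), intervals wide enough to hold a doubling in either direction or nearly so.

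Day8 against day7+1 compared embryos of the same age with a younger or an older cavity. Again 0 of 10 members passed, and 0% of all features did. Before adjustment 1 member and 2786 features were under 0.05. That member was SHMT1, higher in day8 by 1.34 ± 0.54 (0.21 to 2.47, adjusted p = 0.496 in limma), with all 3 day8 arrays above all 3 of day7+1. In a fit of these 6 arrays alone its adjusted p was 0.0148, and with day6+1 replicate 1 and day7 replicate 1 left out of the fit, arrays picked because they were known to stand apart, 0.027, and these settings also raised the calls over all features from 0 to 353 and 395. Within slide 2 the difference was 1.22. All 3 day8 arrays were high on the first principal component and all 3 of day7+1 were not, and the part of this in the SHMT1 difference was not tested. GLDC differed by 0.48 (-0.50 to 1.46) and AGXT2L1 by 0.62 (-0.39 to 1.64).

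Around the members, 90 further genes in 6 lists covered folate enzymes and transport, serine and glycine metabolism, the methionine cycle, purine and thymidylate synthesis, the lipoate enzymes and complexes that share DLD, and ethanolamine and choline phospholipids. Of these, 79 were on the array's table and 78 were tested. The lists were chosen with earlier results of these data known. Their counts and adjusted p are therefore a description and no independent support. In day6+1 against day6, 5 rose and 0 fell, where 0.866% of all features rose and 0.385% fell. In day6+2 against day6, 6 rose and 1 fell, where 2.3% rose and 1.28% fell. With each array centred on its median instead of quantile normalized, 391 features rose and 50 fell in day6+1 in place of 297 and 132, and 930 rose and 211 fell in day6+2 in place of 790 and 439. The median of the 78 genes was 0.04 in day6+1 and -0.02 in day6+2, beside -0.02 for all features in both.

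CHPT1, the cholinephosphotransferase that completes phosphatidylcholine, read 8.32, 7.80 and 8.93 in day6, 10.94, 11.32 and 11.06 in day6+1 and 11.67, 11.47 and 11.38 in day6+2. In day7 it was 10.14, 10.24 and 9.76, in day7+1 11.34, 10.67 and 10.41, and in day8 10.11, 10.47 and 9.56. The day6 arrays lay below all 15 others. CHPT1 rose in day6+1 by 2.76 ± 0.28 (limma adjusted p = 6.36e-05) and in day6+2 by 3.16 ± 0.28 (2.81e-06), and in day7 and day8 against day6 by 1.70 ± 0.28 each (0.00866 and 0.00492). It was the only gene of the lists to pass in day7 against day6, 1 of 78 where 0.236% of features rose and 0.0525% fell, and in day8 against day6, where 0.948% rose and 0.531% fell. Without day6 replicate 2 its adjusted p was 0.0816 in day7 and 0.0515 in day8, and with slide as a fixed block 0.387 and 0.389.

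CHPT1 fell in day8 against day6+2 by 1.46 on the log2 scale (± 0.28, adjusted p = 0.0264 in limma), the 1 gene of 78 to do so where 0.379% of features rose and 0.193% fell. That call was lost without any 1 of the 6 arrays, with adjusted p from 0.0675 to 0.106 and differences from -1.67 to -1.22, and with slide as a fixed block (0.198).

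Among the folate genes, ALDH1L2, a mitochondrial formyltetrahydrofolate dehydrogenase, and SLC19A1, the reduced folate carrier, rose in both day6+1 and day6+2 against day6, 2 of 14 tested, and none fell. ALDH1L2 was 9.40, 8.70 and 9.53 in day6, 10.97, 10.55 and 10.35 in day6+1 and 10.65, 11.30 and 10.82 in day6+2. Its rises were 1.41 ± 0.33 (limma adjusted p = 0.0359) and 1.71 ± 0.33 (0.00338). SLC19A1 was 7.94, 7.85 and 8.08 in day6, 8.65, 9.27 and 8.94 in day6+1 and 8.81, 9.27 and 8.84 in day6+2. Its rises were 1.00 ± 0.21 (0.0174) and 1.02 ± 0.21 (0.00546). Both genes had non-overlapping arrays. In day6+1 against day6 both calls were lost under leave-one-out, ALDH1L2 without day6 replicate 1 or 2 or any day6+1 array (adjusted p 0.0568 to 0.234) and SLC19A1 without day6 replicate 1 or 2 or day6+1 replicate 2 or 3 (0.0531 to 0.139). With slide as a fixed block their adjusted p was 0.647 and 0.492. In day6+2 against day6, SLC19A1 was at 0.0517 without day6+2 replicate 2.

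Of 20 serine and glycine genes, 1 rose in day6+1 and 1 in day6+2 against day6. GATM, which takes glycine into guanidinoacetate on the way to creatine, was 7.56, 6.75 and 8.07 in day6, with the second array not above the negative controls, and 9.72, 9.61 and 8.23 in day6+1. It rose by 1.72 ± 0.39 (limma adjusted p = 0.0282), a call lost without day6 replicate 1 or 2 or day6+1 replicate 1 or 2 (0.0757 to 0.212) and with slide as a fixed block (0.866). ALAS1, which takes glycine into haem, rose in day6+2 by 1.17 ± 0.29 (0.0240), a call lost without any 1 of the day6 arrays or without day6+2 replicate 1.

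Of 14 methionine cycle and transsulfuration genes, CTH, the cystathionine gamma-lyase, rose in day6+1 by 0.93 ± 0.23 (limma adjusted p = 0.0475) and in day6+2 by 1.02 ± 0.23 (0.0122). The first call was lost without day6 replicate 1 or 2 or any day6+1 array and with slide as a block, and the second without day6 replicate 1 or 2 or day6+2 replicate 2 or 3. GNMT, which spends S-adenosylmethionine on glycine, was the only gene of the lists to fall in day6+1 or day6+2 against day6. It stood at 10.23, 10.36 and 10.29 in day6 and 8.83, 9.57 and 9.06 in day6+2, without overlap. It fell in day6+2 by 1.14 on the log2 scale (± 0.24, adjusted p = 0.00783), its other probe differed by -0.99 ± 0.22, and without day6+2 replicate 1 the adjusted p was 0.0577.

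Of 11 lipoate and DLD-sharing genes, BCKDHB, a subunit of the branched-chain keto acid dehydrogenase, rose in day6+2 by 0.84 ± 0.21 (limma adjusted p = 0.0222), a call lost without day6 replicate 2 or 3 or day6+2 replicate 1 or 2. None of the 7 purine and thymidylate genes passed in any comparison.

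None of the 78 genes passed in day6+2 against day6+1, in day7 against day6+1 or in day8 against day7+1, where 0% of all features did so and 1159, 1800 and 2786 features had an unadjusted p under 0.05 in limma. With the replicate number as a block, 4 features passed in day6+2 against day6+1, and none of the 78 genes did. None passed in day7+1 against day7 or in day8 against day7, where 0.0175% of features did. The difference between the extra day after day 7 and that after day 6 was tested as an interaction, in which 0 of 78 genes and 0.00583% of all features passed. PSPH, the last enzyme of serine synthesis, came nearest in day8 against day7, at 0.93 ± 0.23 (adjusted p = 0.121) on its brighter probe and -0.20 ± 0.18 on the other. It was also nearest in day7+1 against day7, at 0.83 ± 0.23 (0.370) on its brighter probe and 0.11 ± 0.18 on the other.

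**Figure D5:**
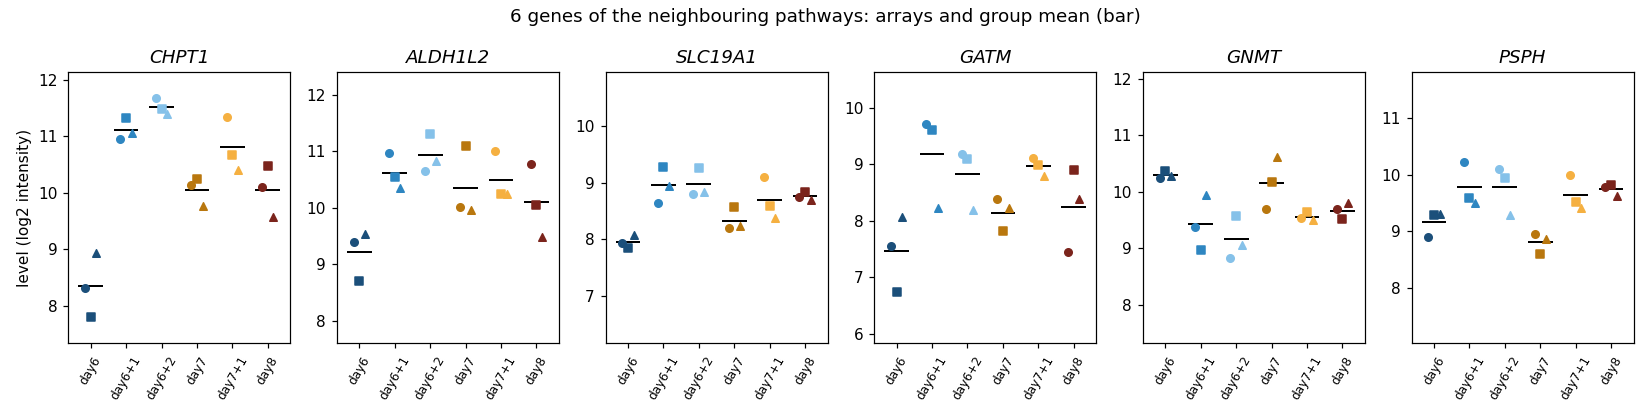
Levels (log2 intensity) of 6 genes of the neighbouring pathways in the 6 groups, with arrays as points and group means as bars, every panel spanning the same number of log2 units. CHPT1, ALDH1L2, SLC19A1 and GATM are lowest in day6, GNMT is highest there, and PSPH at its brighter probe, the one shown, is lowest in day7.

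Summed intensities of the 12 trophectoderm markers, taken off the log scale, were lowest in day6 and highest in day6+2. They ran from 170462 to 208487 in day6, from 247269 to 250601 in day6+1, from 280474 to 299013 in day6+2, from 238883 to 247316 in day7, from 252858 to 259876 in day7+1 and from 241178 to 268214 in day8. Bright probes weigh most in such sums, and the median difference of the 12 from day6 was 0.33 in day6+1 and 0.45 in day6+2. Of the 12, 4 rose and 0 fell in day6+1 and in day6+2 against day6. Of all features 0.866% rose and 0.385% fell in day6+1, and 2.3% and 1.28% in day6+2. In day7 and day8 against day6, 2 and 3 of the 12 rose and 0 fell. All features gave 0.236% up and 0.0525% down in day7, and 0.948% and 0.531% in day8. The 7 epiblast markers summed to 18874 to 20879 in day6 and 15503 to 18363 in day6+2, with 3 up and 2 down, and the 7 hypoblast markers to 78351 to 84516 and 74502 to 79193, with 1 up and 1 down. The part of cell makeup in the member differences was not tested. No marker of the 3 lists of other cells passed in any comparison.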

How the data were processed

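Bovine blastocyst RNA was read on 18 1-colour arrays, 3 in each of 6 groups. Per the file headers, the deposited scans hold each spot's median foreground and background intensity, neither corrected nor scaled. The deposited log2 value table of the authors equalled quantile-normalized log2 of foreground minus background, to within 0.03 for 99% of values, and served as an alternative. Per the submitters' processing notes of 9 arrays, R 3.2.4 and limma 3.28.5 were used; for the other 9 the processing is not given in the sources used here.

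From the scans, spots set aside by the scanner software were left out, background was corrected with normexp (offset 50) and arrays were quantile normalized. A probe was kept if it exceeded 95% of the negative control spots on at least 3 arrays, which held for 40006 of 43794 (91.3%). A gene took its brightest probe, which gave 34283 features and 14549 named genes. Of all probes, 21790 had 1 symbol, 0 several and 22004 none. In R 4.3.3, limma 3.58.1 (lmFit, eBayes) fitted 1 mean per group over all 18 arrays, with Benjamini-Hochberg adjustment over all features at 0.05. The scripts were tested on simulated data.

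The members and lists were chosen with earlier results of these data known. The genes named with array values were the members and, in comparisons where listed genes passed, those with the smallest p, at most 4. The other listed genes that passed are named with difference and adjusted p only. Where none passed, PSPH is named in that way in day7+1 and in day8 against day7, as the nearest gene. No listed gene is named for the other comparisons without a pass. Alternatives covered background and scaling, the authors' table, the filter, the probe rule, slide (known only from file names) and replicate number as blocks, the variance model, the arrays fitted and each array left out. Same-numbered arrays deviated together (every r over 0.1) in day6+2 against day6+1 (0.17, 0.11 and 0.23) and day7 against day6+1 (0.45, 0.11 and 0.24) only. Precision is limited by 3 arrays per group. No sequence is shown, and the arrays' genome build is not given in the sources used here.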

Additional observations from a re-analysis of the deposited data

How the results depend on the processing

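GLDC, AMT, GCSH, MTHFD2 and AGXT2L1 kept their sign against day6 in all 19 settings tried for day6+1 and all 20 for day6+2. The settings used the brightest probe, except the one that took the mean of a gene's probes. GLDC ran from -2.36 to -1.78 and from -2.71 to -1.90, and AGXT2L1 from -3.16 to -2.15 and from -3.57 to -2.28. GLDC and AGXT2L1 were chosen on these contrasts, so their kept sign is a description and no support. The median of all features moved by over 0.1 only with subtracted background and 75th percentile scaling, to -0.13 in day6+1 against day6 and 0.16 in the interaction.

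Signs turned with the probe. The probes named next were dim, with highest arrays of 7.49 to 8.31. SHMT2 on probe EMBV3_42002 was 0.0857 in day6+1, 0.0084 in day6+2 and 0.0862 in day7 against day6. MAT2A on probes EMBV3_17972, EMBV3_33366 and EMBV3_33731 was 0.17, 0.35 and 0.16 in day6+1, 0.16, 0.0169 and 0.18 in day6+2 and 0.10, 0.42 and 0.16 in day8 against day6, and -0.30, -0.18 and -0.059 in day7 against day6+1; EMBV3_17972 and EMBV3_33731 were -0.0567 and -0.0243 in day8 against day6+2, and EMBV3_33731 was 0.0235 in day6+2 against day6+1, where MAT2A within slide 4 was 0.26. MTHFD2 on probe EMBV3_43490 was -0.0388 in day7+1 against day7, 0.0378 in day8 against day7+1 and 0.29 in day7 against day6+1. With slide as a fixed block, AMT was 0.0077 in day7+1 against day7 and 0.057 in day8 against day7 (0.25 within slide 5), AGXT2L1 was 0.55 in day7+1 against day7 and SHMT1 was -0.47 in day7 against day6. The cause was not tested.

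Counts of the wider lists moved more. In day6+1 against day6 the 5 calls became 1 with slide as a fixed block, 3 with only the arrays compared, 2 without day6+1 and day7 replicate 1 (known to stand apart) and 1 to 7 under leave-one-out; in day6+2 against day6 the 7 became 4 to 7 under leave-one-out. The 1 call in day7 against day6, in day8 against day6 and in day8 against day6+2 became 0 with slide as a fixed block, and 0 to 1, 0 to 1 and 0 to 0 under leave-one-out. Day8 against day6 had 2 calls (CHPT1 and SLC19A1) with a replicate block, with only the arrays compared and without the 2 arrays. Day8 against day7 had 1 (PSPH, adjusted p = 0.0380) without those arrays. The interaction had 1 (CHPT1) with 75th percentile scaling, the replicate block or trended robust variance, and 0 to 1 under leave-one-out. For members in day8 against day7+1, the 0 calls became 1 (SHMT1) with only the arrays compared and without those arrays. The replicate block moved no other count of members or listed genes by over 1.5 times. Calls over all features ran from 29 to 648 in day6+1 and 694 to 1533 in day6+2 against day6 (429 and 1229 as reported), 4 to 187 in day7 (99) and 1 to 1023 in day8 (507) against day6, 1 to 801 in day8 against day6+2 (196), 0 to 24 in day7+1 against day7 (6), 0 to 548 in day8 against day7 (6), 0 to 395 in day8 against day7+1 (0), 0 to 1 in day7 against day6+1 (0), 0 to 4 in day6+2 against day6+1 (0) and 0 to 70 in the interaction (2). Centring on the median gave 83 up and 5 down in day7 and 359 and 65 in day8 against day6, and 66 and 62 in day8 against day6+2.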
